A study of Mus musculus with 4 samples.

Results

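Granzymes are serine proteases that cytotoxic T cells and natural killer cells store in secretory granules, and perforin is the protein that opens the target cell membrane so that they can enter. The genes described here are the granzyme genes Gzma, Gzmb, Gzmc, Gzmd, Gzme, Gzmf, Gzmg and Gzmk and the perforin gene Prf1, 9 genes of the 22512 gene symbols used. They were taken from the expression table by symbol, and each had 1 row. The set was chosen by the FPKM values of these same libraries, in which granzymes C to G differed, so every level and ratio below is a description without a test.

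RNA-seq was performed on whole tumours grown from CT26, a mouse colon carcinoma cell line, in the BALB/c background. There were 4 groups with 1 library each: tumours of IL-34-deficient CT26 cells left untreated, the same line given a monoclonal antibody against PD-1, tumours of CT26 cells overexpressing IL-34 left untreated, and that line given the antibody. IL-34 is a cytokine that acts on macrophages through the CSF-1 receptor, while PD-1 restrains activated T cells. The study asked how tumours with and without tumour-cell IL-34 respond to PD-1 blockade.

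The labels give no dose, schedule, animal number, clone number or method of disrupting or overexpressing IL-34, and no line with unaltered IL-34 was compared, so loss and gain of IL-34 cannot be told apart. With 1 library per group, no spread within a group is known and no difference has a replicate check. Values are FPKM, fragments scaled to transcript length and library size, which is a level per length. Where 4 values follow each other, they stand for untreated deficient, treated deficient, untreated overexpressing and treated overexpressing tumours, in that order. Il34 itself was at 3.52, 3.02, 104 and 104 FPKM, the direction of the labels.

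No source used here gives the depth of the libraries. Read from the smallest values in the table, the other 3 libraries had 89.97% to 95.2% of the depth of the untreated deficient library. The treated deficient library stood apart, with a correlation across 11815 genes of 0.975 to 0.982 with the others, while the other 3 correlated at 0.994 to 0.996. Its 10 epidermis markers summed to 108 FPKM, against 1.29 to 4.62 FPKM elsewhere, while 8 skeletal muscle markers summed to 119, 376, 91.9 and 12.6 FPKM, highest in that library and lowest in treated overexpressing tumours. The 8 colon epithelium markers summed to 9.94, 5.01, 2.92 and 2.21 FPKM. Of these, Epcam, Vil1 and Cdx2 were below 1 FPKM in every library and Krt20 was at 0.976 to 3.13 FPKM. Krt8, Krt18 and Krt19 were at 1.94, 2.29 and 2.74 FPKM in untreated deficient tumours and at 0 to 0.331 FPKM in the other 3 libraries. Ratios below carry these differences between libraries, and the part they have in the granzyme values was not tested.

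Granzyme B cleaves after aspartate and activates caspases, granzymes A and K are trypsin-like, and granzymes C to G are a rodent group about whose substrates less is known. In the mouse, Gzmb and Gzmc to Gzmg lie side by side on chromosome 14 with the mast cell protease genes, whereas Gzma and Gzmk lie on chromosome 13 and Prf1 on chromosome 10. In mm10, counted from base 1, Gzmb is at 56258858 to 56262260 and the genes from Gzme to Gzmc span 56117619 to 56234656. Gzma is at 113093827 to 113100981, Gzmk at 113171874 to 113180897 and Prf1 at 61297836 to 61304263. Gzmb and Gzmc to Gzmg each have 5 exons on the minus strand in the GENCODE annotation of the same build.

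Because the genes of the group from C to G resemble each other, the first question is whether the table can tell them apart. The coding sequences of Gzmd, Gzme, Gzmf and Gzmg were 84.7% to 94.8% identical in pairs, with Gzmd and Gzme the closest. Gzmc was 73.4% to 75.2% and Gzmb 67.3% to 69.4% identical to these 4. The coding sequence of Gzmc was closer to that of Gzmb, at 76.7%, than to any of them. Of the 746 coding positions aligned in all 4, 152 differed in at least 1 gene, and the longest run without a difference was 35 bases. The 60-base coding stretch with the most differences is shown because such positions decide to which gene a read is assigned. Capitals mark the 26 positions that differ among the 4 genes; the stretch runs from coding base 104 to 163 in each, counted from the A of the start codon.
Gzmd: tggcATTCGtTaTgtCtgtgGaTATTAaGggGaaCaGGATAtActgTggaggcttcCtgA
Gzme: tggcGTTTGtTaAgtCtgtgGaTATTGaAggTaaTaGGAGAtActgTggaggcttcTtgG
Gzmf: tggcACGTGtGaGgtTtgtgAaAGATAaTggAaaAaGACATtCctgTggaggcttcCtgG
Gzmg: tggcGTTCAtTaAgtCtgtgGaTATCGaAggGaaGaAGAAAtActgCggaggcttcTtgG

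Stretches of 50 bases were shared exactly with another granzyme transcript at 21.9% of positions in Gzmd, 20.6% in Gzme, 19.8% in Gzmg, 7.36% in Gzmf and 4.14% in Gzmc. For stretches of 100 bases the share was 0.231% in Gzmd, 0.247% in Gzmg and 0 in the other 3. Gzma, Gzmb and Gzmk shared no stretch of 50 bases with another granzyme. No source used here gives the read length, and the reference is the C57BL/6J genome whereas the samples are BALB/c. Single values of Gzmc to Gzmg are therefore uncertain and are given beside their sum.

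The resemblance extends upstream of the genes. RefSeq windows on GRCm38.p6, the build also called mm10, are shown for the group that varied together and for Gzmb, which did not vary with it. Each runs on the minus strand from 250 to 21 bases before the RefSeq start, and capitals mark the longest run shared by Gzmd, Gzme, Gzmf and Gzmg, of 29 bases.
Gzmd (chr14:56132614-56132843): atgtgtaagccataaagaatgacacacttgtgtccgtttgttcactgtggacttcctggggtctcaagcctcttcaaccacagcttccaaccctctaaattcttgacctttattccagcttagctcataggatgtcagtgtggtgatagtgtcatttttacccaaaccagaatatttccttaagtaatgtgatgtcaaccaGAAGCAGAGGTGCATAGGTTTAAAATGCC
Gzme (chr14:56120646-56120875): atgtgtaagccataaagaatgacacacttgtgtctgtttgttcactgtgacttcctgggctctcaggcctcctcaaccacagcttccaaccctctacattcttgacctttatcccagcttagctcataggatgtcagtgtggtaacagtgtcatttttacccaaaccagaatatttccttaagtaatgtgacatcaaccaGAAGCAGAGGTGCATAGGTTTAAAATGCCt
Gzmf (chr14:56211428-56211657): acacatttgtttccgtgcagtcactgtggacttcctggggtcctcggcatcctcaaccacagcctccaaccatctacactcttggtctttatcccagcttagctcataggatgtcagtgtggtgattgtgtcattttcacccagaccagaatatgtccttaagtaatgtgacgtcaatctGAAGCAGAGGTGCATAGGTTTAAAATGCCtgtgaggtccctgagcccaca
Gzmg (chr14:56159600-56159829): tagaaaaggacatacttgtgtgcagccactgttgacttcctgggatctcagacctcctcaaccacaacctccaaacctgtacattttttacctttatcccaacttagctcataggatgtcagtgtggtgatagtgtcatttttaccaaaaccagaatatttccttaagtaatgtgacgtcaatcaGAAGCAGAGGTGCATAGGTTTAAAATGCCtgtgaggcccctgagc
Gzmc (chr14:56234678-56234907): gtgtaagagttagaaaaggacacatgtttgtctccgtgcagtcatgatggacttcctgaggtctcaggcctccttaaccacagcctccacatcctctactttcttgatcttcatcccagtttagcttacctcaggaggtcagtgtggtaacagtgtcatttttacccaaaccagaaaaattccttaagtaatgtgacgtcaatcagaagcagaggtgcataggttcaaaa
Gzmb (chr14:56262355-56262584): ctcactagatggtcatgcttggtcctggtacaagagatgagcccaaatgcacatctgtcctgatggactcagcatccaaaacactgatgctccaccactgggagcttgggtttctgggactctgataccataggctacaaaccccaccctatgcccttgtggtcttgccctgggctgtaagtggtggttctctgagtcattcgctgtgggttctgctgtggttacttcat

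These windows were 87.6% to 95.6% identical among Gzmd to Gzmg, and 83.5% to 85.7% identical between Gzmc and these 4. Gzmb was 50.9% to 54.7% identical to these 4 and 63.3% identical to Gzmc. However, the Gzmb window is not placed like the others. It begins at 56262355, while the mm10 gene model given above starts at 56262260 on the minus strand. For Gzmd these positions are 56132614 and 56132593. Identities and motifs of Gzmb are therefore compared at unlike distances from the gene models. The Runx motif AACCACA, searched on both strands, was in all 6 windows, and 4.10% of the 32851 RefSeq windows of the same length hold it. The CRE motif TGACGTCA was in the windows of Gzmc, Gzmf and Gzmg but not of Gzmd, Gzme and Gzmb, against 1.28% of all windows. The AP-1 motif TGANTCA, in 6.34% of all windows, was found in Gzmb only. No window held the T-box motif TCACACC or the STAT motif TTCNNNGAA, which 3.07% and 6.48% of all windows hold. The motifs do not overlap one another in these windows, and the Runx letters were chosen after the windows had been read.

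Gzmb had the highest level of Gzma, Gzmb, Gzmk and Prf1 in every library, at 70.7, 96.2, 92.9 and 99.1 FPKM. The highest value was 1.40 times the lowest. Gzma was at 41.2, 50.8, 64.6 and 64.2 FPKM. Both were lowest in the untreated deficient library, and in Gzma both overexpressing libraries were above both deficient ones. Prf1 was at 22.0, 33.3, 34.7 and 28.4 FPKM, also lowest in the untreated deficient library, with a highest value 1.58 times the lowest. Gzmk, which marks less differentiated cytotoxic T cells, was at 1.87, 2.52, 1.63 and 0.648 FPKM, lowest in the treated overexpressing library.

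Granzymes C to G varied far more. Gzmd was at 46.0, 6.83, 136 and 64.3 FPKM, a range of 19.9-fold. Gzme was at 16.8, 2.27, 51.3 and 26.8 FPKM, Gzmf at 53.8, 9.15, 148 and 56.5 FPKM and Gzmg at 53.2, 7.47, 154 and 62.4 FPKM. Their ranges were 22.6-fold, 16.2-fold and 20.6-fold. Gzmc was at 49.95, 13.9, 107 and 91.3 FPKM, a range of 7.74-fold. All 5 genes had the same order of libraries, with treated deficient tumours lowest, then untreated deficient, treated overexpressing and untreated overexpressing tumours. In Gzmf the 2 middle libraries were close, at 53.8 and 56.5 FPKM.

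**Figure D1:**
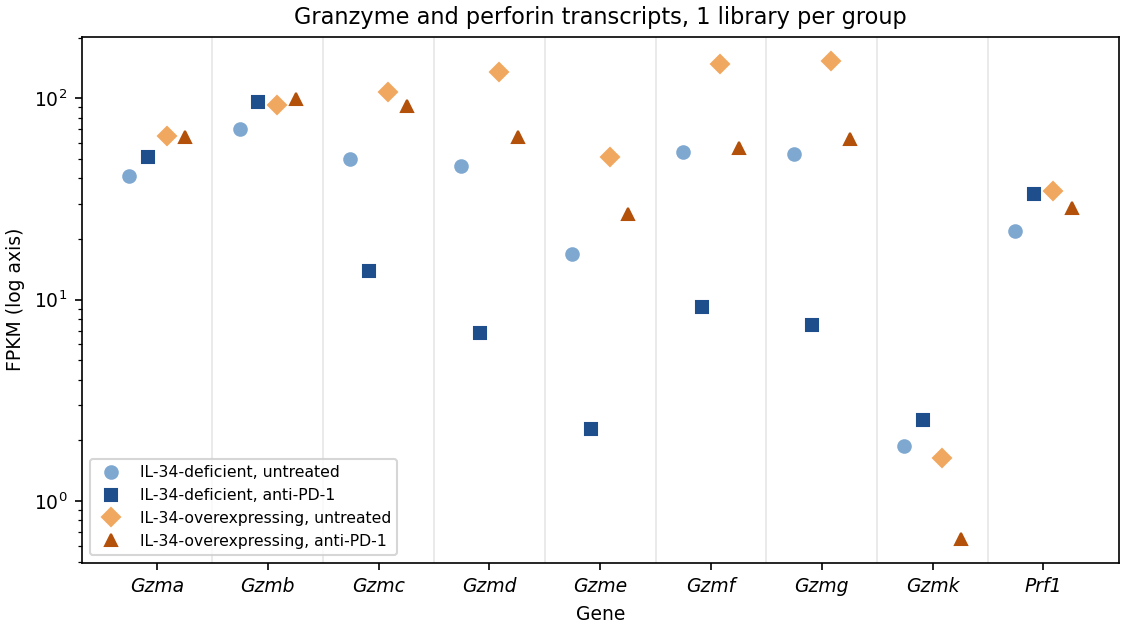
FPKM of each granzyme and of perforin in the 4 libraries, on a log axis, with 1 point per library and no error because each group has 1 library. Gzma, Gzmb and Prf1 stay within a 1.58-fold range, while Gzmd, Gzme, Gzmf and Gzmg are lowest in treated deficient tumours and highest in untreated overexpressing tumours.

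The summed level of granzymes C to G was 220, 39.6, 596 and 301 FPKM. Apart from small differences in transcript length, the sum does not depend on which of the 5 genes a shared read was given to, and it spanned 15.1-fold. Shared reads that were left out, counted more than once or given to Gzmn would change the sum, and how they were treated is not known. Granzymes C to G made up 65.9% of the summed FPKM of the 8 granzymes in untreated deficient tumours and 20.9% in treated deficient tumours, where Gzmb alone made up 50.9%. In the overexpressing line the share was 78.9% without and 64.8% with treatment. The summed FPKM of all 8 granzymes was 333, 189, 755 and 465.

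**Figure D2:**
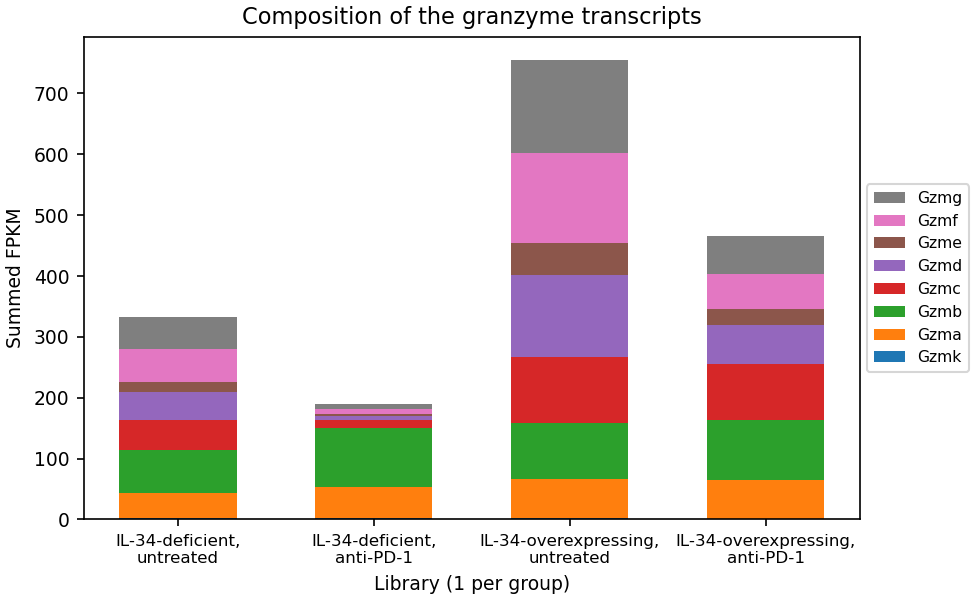
Summed FPKM of the 8 granzymes in each library, stacked by gene, 1 library per group. The total of 189 FPKM in treated deficient tumours is mostly Gzmb and Gzma, while in the 3 other libraries granzymes C to G make up 64.8% to 78.9%.

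Within the group, the proportions of Gzmd, Gzme, Gzmf and Gzmg were similar in the 4 libraries. Of the summed level of these 4 genes, Gzmd took 26.6% to 30.6%, Gzme 8.84% to 12.7%, Gzmf 26.9% to 35.6% and Gzmg 29.0% to 31.4%. Gzmc did not keep its proportion to the rest. Its share of granzymes C to G was 22.7% without and 35.1% with anti-PD-1 in the deficient line, and 18.0% without and 30.3% with anti-PD-1 in the overexpressing line.

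The comparison of treated with untreated tumours of the deficient line asked how the genes responded to PD-1 blockade where tumour cells lacked IL-34. Granzymes C to G were lower with treatment, while Gzma, Gzmb, Gzmk and Prf1 were slightly higher. Ratios are given as log2 of FPKM + 1, and a gene is counted when this ratio is at least 1 in size and FPKM is at least 1 in either library, a minimum that all 9 genes passed. Of the 9 genes, 5 were lower and 0 higher by this size, with 0.35% of 11717 genes lower and 1.49% higher. The log2 ratios of the 5 lay between −2.68 (Gzmg) and −1.78 (Gzmc), all among the 10 lowest of the 11717, and the summed level was 5.55-fold lower. Gzmb was 1.36-fold, Gzma 1.23-fold, Gzmk 1.35-fold and Prf1 1.51-fold higher, none past the size. The median log2 ratio was −1.78 for the 9 genes and −0.06 for all genes compared.

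In the overexpressing line the same comparison gave lower levels of granzymes D to G and near-equal Gzma and Gzmb. Of the 9 genes, 3 (Gzmd, Gzmf and Gzmg) were lower by size and 0 higher, with 0.279% of 11462 genes lower and 0.0523% higher. Gzmf was 2.62-fold, Gzmg 2.46-fold and Gzmd 2.11-fold lower. Gzme, 1.92-fold lower with a log2 ratio of −0.91, lay just short of the size, as did the sum of granzymes C to G, 1.98-fold lower with a log2 ratio of −0.98. Gzmc differed less, at 91.3 with and 107 FPKM without treatment (log2 ratio −0.23). Gzma and Gzmb had log2 ratios of −0.01 and 0.09, Prf1 one of −0.28 and Gzmk one of −0.67. The median log2 ratio was −0.67 for the 9 genes and 0.00 for all genes compared. In the same comparison 7 of 8 skeletal muscle markers were lower by size, with a median log2 ratio of −1.99, and their part in the granzyme values was not tested. With a pseudocount of 0.1 Gzmk also passed the size, with a log2 ratio of −1.21.

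The untreated libraries were compared to ask how the lines differed without treatment. All of the genes except Gzmk were higher in the overexpressing tumour, and granzymes C to G were 2.71-fold higher in sum. By size 5 were higher and 0 lower, with 0.122% of 11468 genes higher and 0.0959% lower. Gzme was 3.06-fold, Gzmd 2.95-fold, Gzmg 2.89-fold, Gzmf 2.75-fold and Gzmc 2.15-fold higher, all among the 11 highest ratios. Gzma and Prf1 were 1.57-fold and 1.58-fold higher and Gzmb 1.31-fold higher, none past the size. The log2 ratios of Gzma and Prf1, 0.64 and 0.63, ranked 26 and 27 from the highest. Both lay above the middle 99% of all genes, which ended at 0.49. The median log2 ratio of the 9 genes was 1.09, against −0.03 for all genes compared. This comparison does not use the treated deficient library that stood apart, but of 4 colon epithelium markers above the FPKM minimum 3 were lower by size in the overexpressing tumour, with a median log2 ratio of −1.61. Their part in the granzyme difference was not tested.

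Between the treated libraries the overexpressing tumour had the higher level of granzymes C to G and the lower level of Gzmk. By size 5 genes were higher and 1 lower, with 0.392% of 11737 genes higher and 2.37% lower. Gzme was 11.8-fold, Gzmd 9.42-fold, Gzmg 8.36-fold, Gzmc 6.57-fold and Gzmf 6.18-fold higher, and the sum of the 5 was 7.61-fold higher. Gzmk was 3.89-fold lower, at 0.648 against 2.52 FPKM, and did not pass the size with a pseudocount of 5 (log2 ratio −0.41). Gzmb was level, at 99.1 against 96.2 FPKM, with a direction that turned when FPKM were rescaled to TPM or by median ratios. Gzma was 1.26-fold higher and Prf1 1.17-fold lower. The median log2 ratio of the 9 genes was 2.50, against 0.04 for all genes compared.

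**Figure D3:**
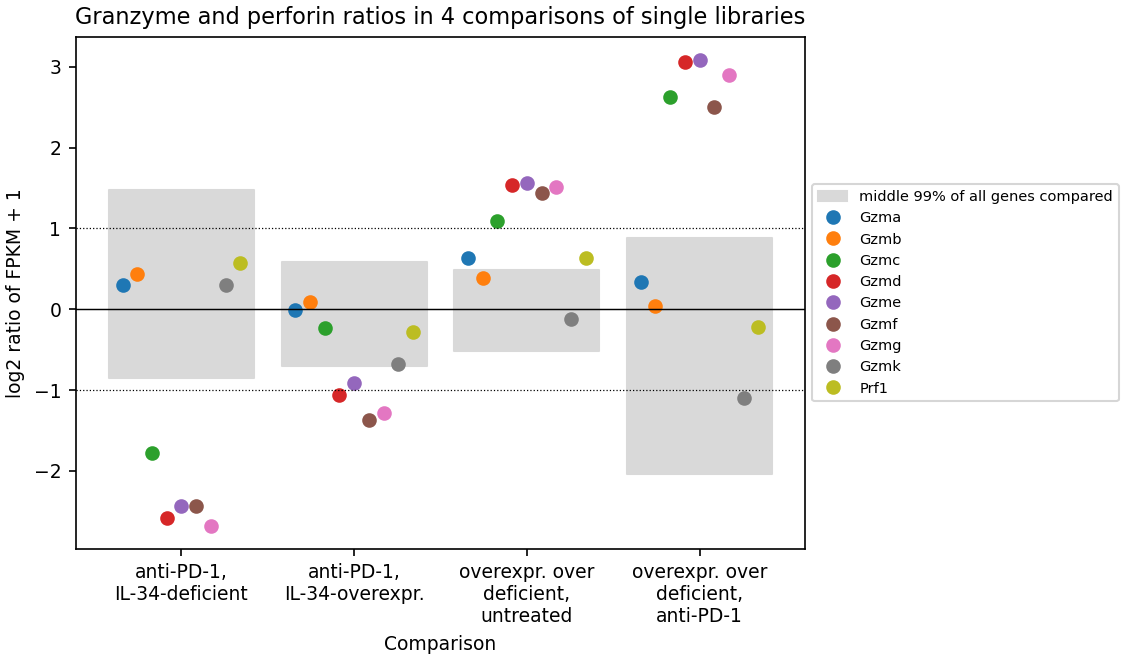
Log2 ratio of FPKM + 1 of each gene in the 4 comparisons, with 1 library on each side. Grey boxes hold the middle 99% of all genes compared, and dotted lines mark the size of 1; granzymes D to G lie outside the boxes in every comparison, below them for both anti-PD-1 comparisons and above them for both comparisons of the lines.

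Each of these 4 comparisons shares a library with 2 others, so they are not independent of one another. The responses to anti-PD-1 can be set side by side, since they use different libraries. The sum of granzymes C to G had a log2 ratio of −2.44 in the deficient and −0.98 in the overexpressing line, a difference of 1.46. By this difference 5 of the 9 genes were past the size on the higher side, from 1.06 for Gzmf to 1.54 for Gzmc, with 0.525% of 11815 genes higher and 2.18% lower. On the lower side were 0, Gzmk at −0.97 and Prf1 at −0.86 being closest. With TPM the difference for Gzmf was 0.97, short of the size, while those for Gzmk and Prf1 were −1.34 and −1.01 and passed it. With 1 library per group the difference of the responses has no test.

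Markers of the cells that make granzymes did not follow granzymes C to G. All 9 T cell markers were detected in every library, and their summed level was 60.3, 141, 46.3 and 35.3 FPKM. The 7 natural killer cell markers summed to 30.3, 65.0, 28.3 and 25.2 FPKM. Both lists were thus highest in the library where granzymes C to G were lowest. In these bulk tumours, fewer cells of a type and less RNA per cell cannot be told apart. Per unit of Cd8a, the coreceptor of cytotoxic T cells, granzymes C to G stood at 25.5, 1.96, 103 and 88.2. Per unit of Ncr1, a receptor of natural killer cells, the values were 33.3, 3.64, 80.3 and 44.3. Gzmb per unit of Cd8a was 8.21, 4.76, 16.1 and 29.0, so it was lowest in treated deficient tumours as well. Prf1 per unit of Gzmb was steadier, at 0.311, 0.346, 0.373 and 0.286.

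**Figure D4:**
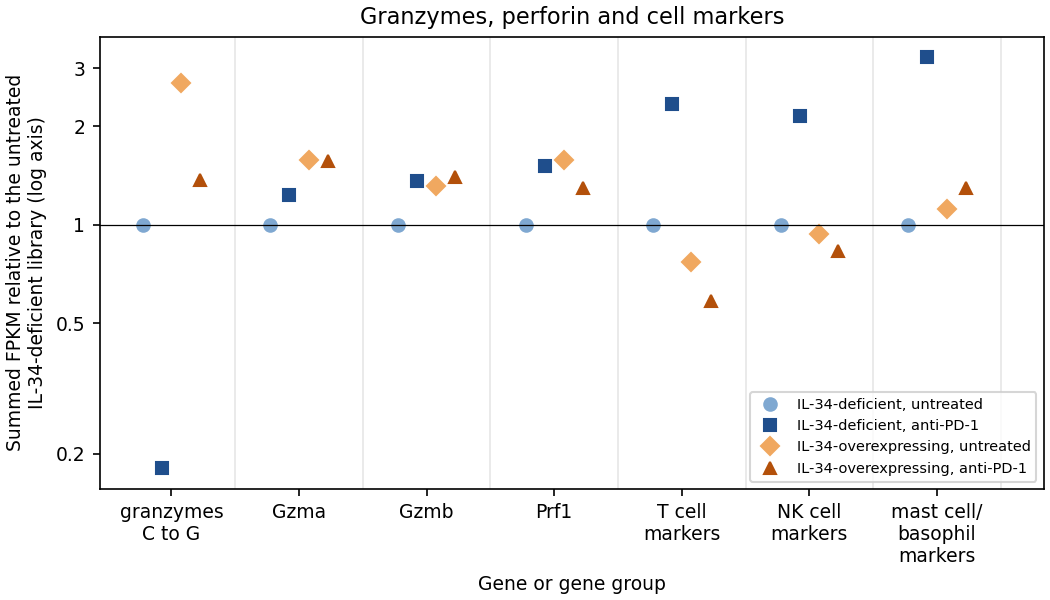
Levels of granzymes C to G, Gzma, Gzmb, Prf1 and the summed markers of 3 cell groups, each divided by its value in untreated deficient tumours, on a log axis with 1 point per library. In treated deficient tumours granzymes C to G stand at 0.180 while T cell, natural killer cell and mast cell markers stand at 2.33, 2.15 and 3.24.

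The markers of other cells that the tumours could hold varied as follows. Mast cell and basophil markers, which include proteases of the granzyme locus, summed to 156, 505, 174 and 201 FPKM. Plasmacytoid dendritic cell markers summed to 424, 696, 346 and 458 FPKM, nearly all of it Bst2, which interferon also induces, and macrophage markers to 1967, 3401, 2034 and 1785 FPKM. The part of these cells in the granzyme levels was not tested.

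Along the locus on chromosome 14 the genes on both sides of granzymes C to G did not share their order of libraries. The mast cell proteases Cma1 and Mcpt4, 318 and 199.95 kb from the Gzmb start, were highest in treated deficient tumours, at 50.1 and 56.0 FPKM against 17.3 to 25.6 FPKM elsewhere. Ctsg, the cathepsin gene next to Gzme, was at 1.44 to 2.67 FPKM. Gzmn lies between Gzmg and Gzmf and was listed at 0 in both deficient libraries and at 0.134 (untreated) and 0.0284 FPKM (treated) in the overexpressing ones. Mcpt9 was listed at 0 in all 4 libraries, and Mcpt1, Cma2 and Mcpt8 were below 1 FPKM in each. Gzmm, the remaining granzyme gene and not part of the locus, was at 0.262 to 0.462 FPKM.

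**Figure D5:**
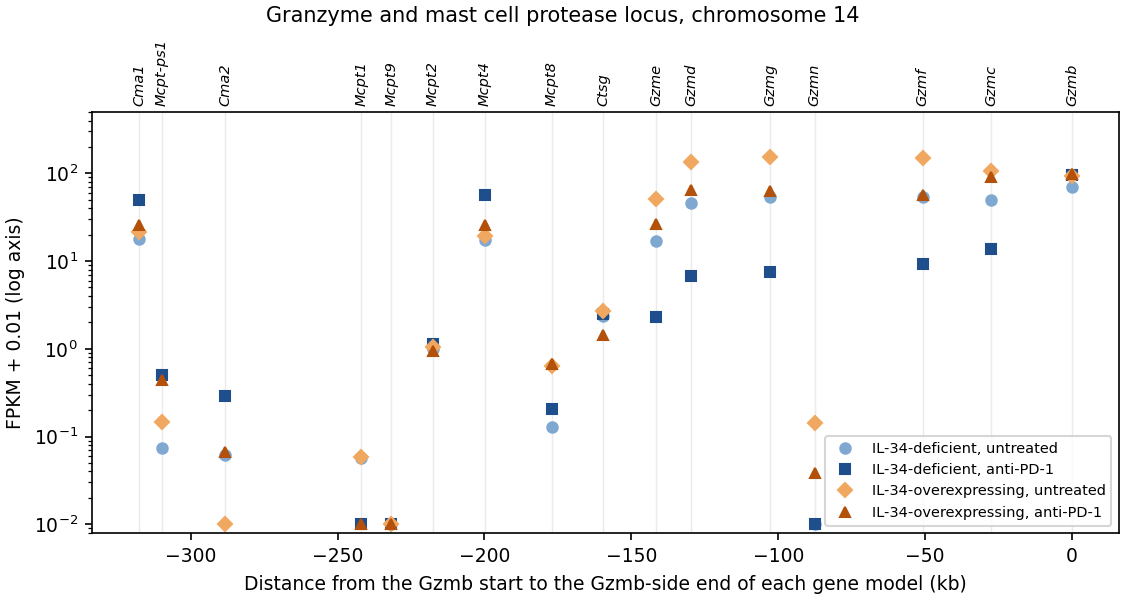
FPKM + 0.01 on a log axis for 16 genes of the granzyme and mast cell protease locus, placed by their distance in kb from the Gzmb start, with 1 point per library. From Gzme to Gzmc, all genes but Gzmn are lowest in treated deficient tumours, while Cma1 and Mcpt4 are highest there and Gzmb is level.

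Other genes of the granule pathway were described by the same size. Of 13 genes of granule cargo and release, 2 were higher and 0 lower with anti-PD-1 in the deficient line. Of all genes compared there, 1.49% were higher and 0.35% lower. With anti-PD-1 in the overexpressing line 0 of the 13 passed the size, with 0.0523% of all genes higher and 0.279% lower. Between the untreated lines 0 passed it as well, with 0.122% of all genes higher and 0.0959% lower. Between the treated lines 2 were lower in the overexpressing tumour, with 2.37% of all genes lower. The highest level of the list was that of Calr, calreticulin, at 705, 876, 684 and 765 FPKM, and Ctsc, the peptidase that activates granzymes, was at 273, 377, 226 and 268 FPKM. The 2 that passed were Nkg7, a granule membrane protein, at 29.6, 74.3, 25.1 and 21.4 FPKM, and Ctsw, at 6.55, 16.8, 5.71 and 4.96 FPKM. Both had their highest value in the library where granzymes C to G were lowest. Srgn, which encodes the proteoglycan that holds granzymes in the granule, was at 143 to 168 FPKM.

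Of 5 inhibitors of granzymes and related proteases, 1 was higher by size with anti-PD-1 in the deficient line, with 1.49% of all genes higher. This was Serpina3g, at 149 against 67.9 FPKM. Serpinb9, the inhibitor of granzyme B in mouse cytotoxic cells, was at 11.8, 16.1, 11.6 and 12.7 FPKM. Serpinb9b was at 4.41, 2.55, 8.87 and 7.01 FPKM, the order of libraries of granzymes C to G, and was picked out for that after its values were seen. It was the 1 inhibitor higher by size in overexpressing than in deficient tumours under anti-PD-1, with 0.392% of all genes higher and 2.37% lower. Serpina3g was the 1 inhibitor lower by size there, at 62.4 against 149 FPKM. The median log2 ratio of the 5 inhibitors was −0.32, against 0.04 for all genes compared.

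Other killing ligands and cytokines of cytotoxic cells had a median log2 ratio of 0.98 with anti-PD-1 in the deficient line, with 3 of 7 genes above the FPKM minimum past the size, and one of 0.11 in the overexpressing line, with 0 of 7. Of all genes, 1.49% were higher and 0.35% lower by size in the deficient line, and 0.0523% and 0.279% in the overexpressing line. Ccl5, a chemokine of activated cytotoxic cells, was at 41.5, 223, 35.4 and 34.1 FPKM. Fasl, the ligand of the other killing pathway, was at 2.47, 3.78, 1.53 and 1.45 FPKM. Of the transcription regulators of cytotoxic cells, 0 of 10 passed the size with anti-PD-1 in the deficient line and 0 of 9 in the overexpressing line. At the shares of all genes just given, a count of 0 does not set this list apart. Its median log2 ratio in the deficient line was 0.41, against −0.06 for all genes compared. Between the treated lines 1 of 10, Tbx21, was lower by size in the overexpressing tumour (log2 ratio −1.16), with 2.37% of all genes lower. Id2, an inhibitor of DNA binding by helix-loop-helix factors, had the highest level, at 31.7, 44.7, 31.6 and 29.5 FPKM. Tbx21 (T-bet) was at 2.44, 5.42, 1.90 and 1.86 FPKM, and Eomes, the related T-box factor, at 1.76, 2.24, 2.21 and 2.59 FPKM. Runx3, which promotes the cytotoxic lineage, was at 5.48 to 6.28 FPKM.

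Cytokines and receptors that induce granzymes were at 10 of 14 above the FPKM minimum in each comparison. With anti-PD-1 in the deficient line 1 was higher by size, with 1.49% of all genes higher. Between the treated lines 4 were lower in the overexpressing tumour, with 2.37% of all genes lower. Il2rg, the common chain of several cytokine receptors, had the highest level, at 60.9, 127, 59.2 and 61.9 FPKM. Il2rb, a chain shared by the receptors of IL-2 and IL-15, was at 22.1, 44.8, 22.9 and 21.8 FPKM, and Il15 at 8.74, 9.37, 9.31 and 9.99 FPKM. Il2 was listed at 0 in 3 libraries and at 0.112 FPKM in treated deficient tumours. Between the untreated lines, where granzymes C to G differed 2.71-fold in sum, 0 genes of any of these lists passed the size. Of all 11468 genes compared there, 0.122% were higher and 0.0959% lower by size. At such shares a count of 0 does not set these lists apart from other genes.

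Among 8991 other genes with at least 5 FPKM in at least 1 library, the profiles over the 4 libraries nearest to the sum of granzymes C to G were sought by Euclidean distance of centred log2 values. The nearest was BC002163, at 6.87, 0.0148, 22.2 and 13.9 FPKM and a distance of 0.70, a non-coding gene with several rows whose values are uncertain because the row used lies over another gene, Ndufs5. Next were Rmrp at a distance of 0.91, Tgoln2 at 1.54, Lyve1 at 1.57 and Prnd at 1.64. Gzmd, Gzme, Gzmf and Gzmg lay at 0.18, 0.16, 0.34 and 0.28, and Gzmc at 0.77. These genes make up the sum itself, so their distances to it are small in part by construction. Gzma, Gzmb and Prf1, which are not part of the sum, lay at 2.66 to 2.94, farther away than all genes just named. Nearest to Gzmb were Adamts14, Slc25a45 and 9930111J21Rik1, at 0.09 to 0.14, and nearest to Prf1 were Pdss1, Gm13152 and Haghl, at 0.18 to 0.19. Gzmb and Prf1 lay at 0.28 from each other. Distances over 4 libraries describe these libraries.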

How the data were processed

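RNA was extracted from tumours with a PureLink kit and libraries were made with a strand-specific SureSelect kit, per the labels' protocols. The authors deposited 1 table of FPKM values for 23745 gene rows. The submitters' processing notes name TopHat2 2.1.0, Cufflinks 2.2.1, CASAVA 1.8.2 and the mm10 build. Their settings, including how reads matching several genes were divided, are not given in sources used here. FPKM carries no fragment counts, so no counting interval was computed. Relative depth was the most frequent ratio of values below 0.1 FPKM, within 0.01.

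From the table, 812 rows of short RNAs and 1 emptied line were left out, and where a symbol had several rows (240 symbols), that of the highest mean level was used. Start coordinates were raised by 1 to count from base 1. Ratios were log2 of FPKM + 1, which understates low genes. As each group had 1 library, nothing was tested. The counting by size was checked on simulated data with changes put in well past the size. This checks the code and not how the rule performs on single tumours. Sequences came from RefSeq (GRCm38.p6 windows, matched by symbol for all 6 genes sought) and GENCODE transcripts, aligned with Biopython 1.88. Python 3.11.15, numpy 2.4.6, pandas 2.3.3 and matplotlib 3.10.9 were used. Genes named were the 9 members, the locus, lists (first the highest mean FPKM, then members picked for known roles after values were seen) and nearest profiles. Members and lists were chosen with earlier results of these data known. Alternatives changed the pseudocount, FPKM minimum, scaling and choice of rows.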

Additional observations from a re-analysis of the deposited data

Results flagged for a closer look

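Opposite directions of single libraries picked out 3 genes, and none of these differences was tested. With anti-PD-1, Gzma was higher in the deficient and very slightly lower in the overexpressing line, a difference of log2 ratios of −0.31, and this direction in the overexpressing line turned when FPKM were rescaled to TPM. Treated Gzmk levels lay above untreated ones in deficient and below them in overexpressing tumours, with a difference of −0.97. Prf1 did the same, with a difference of −0.86. Set the other way, Prf1 was higher in overexpressing than in deficient tumours without treatment and lower with it, which is the same difference of −0.86.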

How the results depend on the processing

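The sum of granzymes C to G kept its direction and its side of the size of 1 in all 5 comparisons under every alternative run. Changes of the FPKM minimum and of the choice of rows could not move it, so only the pseudocount and the scaling bear on this sum. Its log2 ratio ranged from −2.47 to −2.30 with anti-PD-1 in the deficient line, from −0.98 to −0.97 in the overexpressing line, from 1.42 to 1.49 between the untreated lines, from 2.78 to 2.92 between the treated lines and from 1.33 to 1.48 for the difference of the responses. With anti-PD-1 in the overexpressing line, 4 of the 9 genes in place of 3 were lower with a pseudocount of 0.1. Under anti-PD-1, the count lower in the overexpressing line was 0 with a pseudocount of 5 or an FPKM minimum of 5, in place of 1 (Gzmk). For the difference of the responses, the count on the higher side was 2 with a pseudocount of 5 and 4 with TPM or median-ratio scaling, in place of 5, and that on the lower side was 1 with a pseudocount of 0.1 or median-ratio scaling and 2 with TPM. The directions that turned were those of near-equal levels: Gzmb between the treated lines (−0.042 with TPM and −0.0070 with median-ratio scaling) and Gzma in the overexpressing line (0.0051 with TPM). TPM moved the median of all genes with anti-PD-1 in the deficient line from −0.06 to 0.09. Counts over all genes depend on the pseudocount: in that comparison 174 were higher and 41 lower, against 361 and 72 with 0.1 and 69 and 12 with 5, and 412 were higher with TPM. With a pseudocount of 0.1 the counts were 32 and 56 in place of 6 and 32 in the overexpressing line, 24 and 26 in place of 14 and 11 between the untreated lines, and 80 and 476 in place of 46 and 278 between the treated lines. A pseudocount of 5 gave 1 and 13, 8 and 0, and 18 and 108, and TPM gave 14 and 51, 22 and 22, and 60 and 507. The comparisons that use the treated deficient library have no value without it. No paired analysis was possible because each group has 1 library. Gzmk, Gzmm and Gzmn had values below 1 FPKM, where the pseudocount weighs on a ratio.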
